A study of Pleurotus ostreatus with 4 samples.

Results

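A set of 228 assembled sequences of the oyster mushroom Pleurotus ostreatus was abundant at all 4 stages of development profiled and differed little between them. A sequence belonged to the set if its deposited FPKM, the number of fragments scaled by sequence length and library total, was at least 50 in every library and its highest value was at most 25% above its lowest. Of the 51131 sequences in the table, 1342 were at 50 FPKM or more in every library, and the 228 were 17.0% of these. The members were thus selected on the measured FPKM of these 4 libraries, and their level and narrow range are given as descriptions. The stages were vegetative mycelium, primordium, and the young and the mature fruit body, all of wild-type strain P739, with 1 library each. Without replicate libraries no p-value is given, and the number of mushrooms or cultures behind a library was not stated in the labels. Identifiers are those of the deposited table without the ending "_All", which carries no name or description. A RefSeq annotation of 11849 genes from strain PC9 held 0 of the identifiers, so the protein encoded by a member, its genome position and its sequence are not given, and the stage labels could not be set against marker genes.

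In filamentous basidiomycetes, hyphae of the vegetative mycelium aggregate into primordia, which differentiate into the cap, gills and stem of the mushroom. Transcripts of basic cell functions, such as translation, energy metabolism and the cytoskeleton, are commonly abundant in growing and in fruiting tissue alike, and steady transcripts of this kind are used as internal references when other transcripts are measured by quantitative PCR. A value in FPKM is a share of the fragments in a library, so a constant FPKM is a constant share and not a constant number of molecules per cell. In libraries from whole tissue, fewer cells of a type and less RNA per cell cannot be told apart.

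The library totals that served as FPKM denominators, recovered from the steps of whole fragments in the values, were between 15048631 and 15691317 fragments. The members took nearly equal shares of these totals, namely 8.29% for mycelium, 8.42% for primordium, 8.46% for the young and 8.35% for the mature fruit body. As shares of summed FPKM the members made up 6.59% in mycelium, 7.45% in primordium, 7.49% in the young and 7.31% in the mature fruit body. Their own summed FPKM was 39236 in mycelium, 39577 in primordium, 39926 in the young and 39234 in the mature fruit body, whereas the sum over all sequences was 595666 in mycelium and between 531062 and 536915 in the fruiting libraries. The rule holds the members' sums close together, so their shares of summed FPKM move with the total.

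Within the 1342 abundant sequences the set was the lower end of a continuous distribution. The highest library was at most 5% above the lowest for 5 sequences, 5% to 10% above it for 35, 10% to 15% for 55, 15% to 20% for 60 and 20% to 25% for 73. A further 72 sequences lay between 25% and 30%, so no gap in the distribution marked the limit. Beyond it, the ratio of highest to lowest was up to 1.5 for 220 sequences, between 1.5 and 2 for 380, between 2 and 4 for 379, and above 4 for 63. The median ratio was 1.17 over the members and 1.66 over all abundant sequences.

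**Figure D1:**
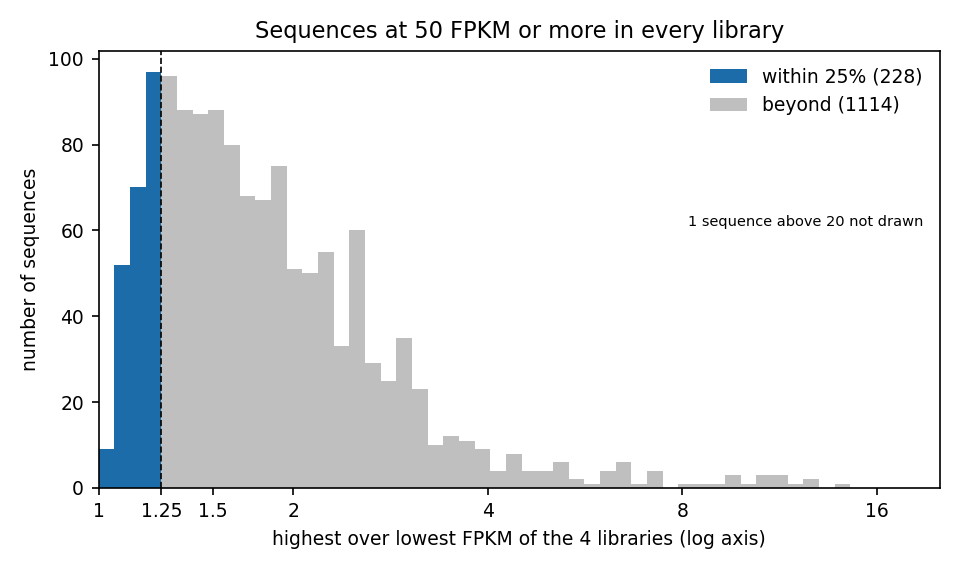
Number of sequences (vertical axis) by the ratio of highest to lowest FPKM over the 4 libraries (horizontal log axis) for the 1342 sequences at 50 FPKM or more in every library. Blue bars are the 228 constant sequences and grey bars the other 1114; the dashed line is the limit of 25%, across which the bars run on without a gap.

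Most members were moderately abundant. Their geometric mean over the libraries ranged from 51.7 to 1459 FPKM with a median of 94.2 FPKM, and 4 members exceeded 1000 FPKM. Unigene1372 (1250 nt), the most abundant, stood at 1509 FPKM in mycelium, 1583 in primordium, 1399.7 in the young and 1353 in the mature fruit body. Its primordium value was thus 17.0% above its mature fruit body value, a ratio with a 95% counting interval of 1.151 to 1.19. Unigene2127 (1885 nt) had 1371 FPKM in mycelium, 1492 in primordium, 1434 in the young and 1519.9 in the mature fruit body. It was lowest in mycelium, and the highest library was 10.9% above the lowest.

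The other two members above 1000 FPKM divided the libraries differently. Unigene4792 (571 nt) had 1316 FPKM in mycelium and 1335 in primordium, against 1574 in the young and 1607 in the mature fruit body. The later pair of stages stood above the earlier pair, and the highest value was 22.1% above the lowest. Unigene3929 (1236 nt) had 1506 FPKM in mycelium and 1533 in primordium, against 1278 in the young and 1377 in the mature fruit body. Here the earlier pair stood above the later pair as deposited, by up to 19.9%. After the columns were scaled to equal upper quartiles, mycelium, at 1355 FPKM, was below mature fruit body, at 1382 FPKM.

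The members of smallest ratio were less abundant. CL6031.Contig2 (1334 nt) had 87.6 FPKM in mycelium, 85.5 in primordium, 86.7 in the young and 85.5 in the mature fruit body, so that the highest library was 2.54% above the lowest. The counting interval of this ratio, 0.960 to 1.095, included equality. CL137.Contig5 (8629 nt) had 104 FPKM in mycelium, 105 in primordium, 108 in the young and 108 in the mature fruit body, a difference of 3.70%. Because it is long, each of its values rested on at least 13688 fragments, and its interval of 1.013 to 1.06 was narrow.

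CL3311.Contig2 (583 nt) had 50.9 FPKM in mycelium, 52.9 in primordium, 50.9 in the young and 52.3 in the mature fruit body. Its values rested on 457 to 478 fragments, so the interval around its difference of 3.95% ran from a ratio of 0.912 to 1.19. Unigene562 (4325 nt) had 85.0 FPKM in mycelium, 81.6 in primordium, 83.4 in the young and 84.6 in the mature fruit body, a difference of 4.12%. In all, 40 of the 228 members stayed within a ratio of 1.1.

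**Figure D2:**
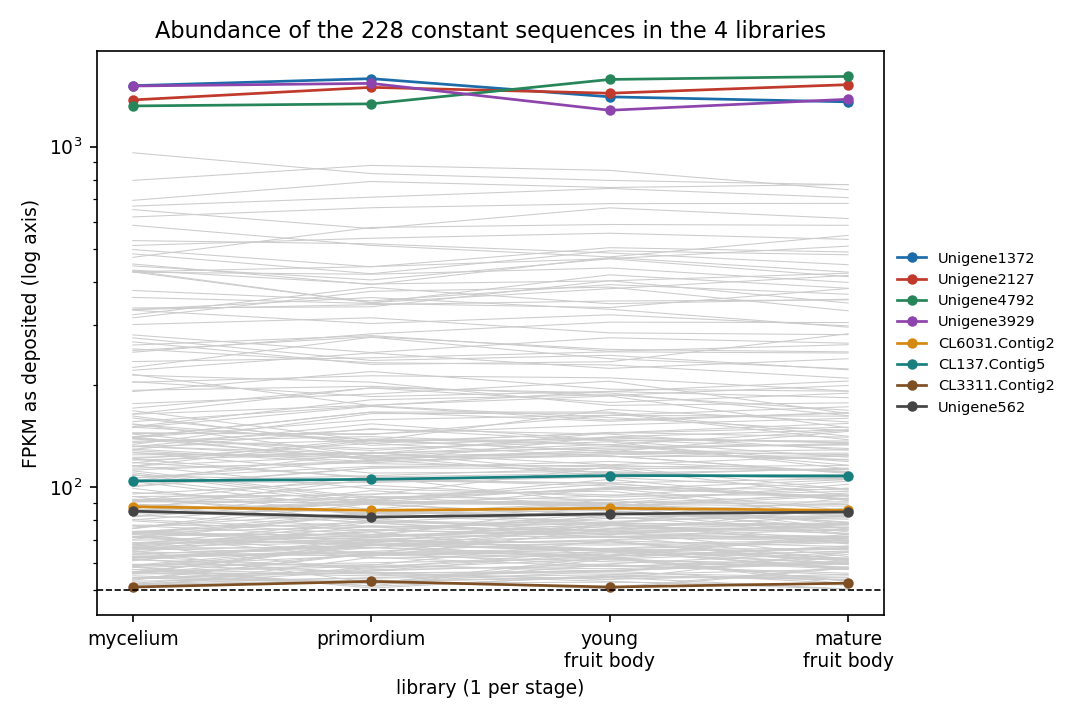
FPKM as deposited (vertical log axis) in the 4 libraries (horizontal axis, 1 library per stage); each grey line is 1 of the 228 constant sequences. Coloured lines are the 4 members of highest geometric mean, all above 1000 FPKM, and the 4 of smallest ratio, from CL3311.Contig2 near the minimum of 50 FPKM (dashed) to CL137.Contig5 at 104 to 108 FPKM.

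Neither edge of the rule separated distinct sequences. At the ratio limit, Unigene6250 (3273 nt) was the last inside, with 473 FPKM in mycelium, 579 in primordium, 591 in the young and 587 in the mature fruit body, a highest value 24.88% above the lowest. The next inside was Unigene455 (819 nt), with a difference of 24.83% that ran the other way, from 149.98 FPKM in mycelium through 138 and 128 to 120.1 FPKM in mature fruit body. After scaling to equal upper quartiles, Unigene455 was highest in primordium, at 148 FPKM against 135 FPKM in mycelium. Just outside, Unigene5786 had 124 FPKM in mycelium, 155 in primordium, 154 in the young and 146 in the mature fruit body, a difference of 25.01%. Unigene3005, at 571, 714, 644 and 599 FPKM in the same order of libraries, differed by 25.08%. All but Unigene455 of these sequences were lowest in mycelium.

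At the abundance limit, the members closest to 50 FPKM were Unigene8237, at 57.3, 55.6, 52.9 and 50.2 FPKM across the stages in order of development, and Unigene2896, at 51.5, 52.8, 54.3 and 50.2 FPKM. Both had their lowest deposited value in mature fruit body. Unigene8320 was kept out by 49.9 FPKM in mature fruit body, and CL3539.Contig1 by 49.8 FPKM in primordium, although their ratios of 1.18 and 1.094 were within the limit.

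Small as they were, the differences between libraries were mostly larger than counting error. Members had between 456 and 40158 fragments in their lowest-count library, with a median of 3643, and the upper arm of the 95% counting interval of the ratio was 4.53% of it at the median. The interval lay wholly above 1 for 220 members and reached 1 for 8. It lay wholly at or below the 25% limit for 146 members and extended beyond it for 82. The chi-square statistic for equal shares over the libraries, divided by its 3 degrees of freedom, is about 1 where counting is the sole source of spread; its median over the members was 16.1, its range 0.174 to 291, and 4 members were at or below 1. The most abundant member, Unigene1372, had 143 on this scale, and CL3311.Contig2 had 0.174. These intervals cover counting error alone; the spread between cultures or mushrooms of 1 stage was not measured, and since the highest and lowest of 4 values were picked, an interval describes those 2 libraries only.

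The highest value was divided nearly evenly over the stages. It fell in mycelium for 58 members, in primordium for 60, in young fruit body for 59 and in mature fruit body for 51. The lowest value was less even, with 86 members lowest in mycelium, 57 in primordium, 26 in the young and 59 in the mature fruit body. Over all 1342 abundant sequences, 438 were highest and 736 lowest in mycelium, 32.6% and 54.8%, compared with 25.4% and 37.7% of the members. The shares highest in primordium, young and mature fruit body were 23.2%, 26.9% and 17.2%, against 26.3%, 25.9% and 22.4% of the members. In primordium, 180 of the 1342 were lowest (13.4%), against 57 of the 228 members. Lowest in young and mature fruit body were 10.4% and 21.4%, against 11.4% and 25.9% of the members. Members were thus lowest in young fruit body about as seldom as all abundant sequences. These contrasts were not tested. These counts depend on how the columns are scaled: after scaling to equal upper quartiles, 2 members were highest and 186 lowest in mycelium, whereas with median-of-ratios factors 89 were highest and 47 lowest there.

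Relative to the geometric mean of the other libraries, a member's value lay at a median distance of 7.56% in mycelium, 6.43% in primordium, 4.60% in the young and 5.97% in the mature fruit body. Young fruit body lay within 5% of the others for 119 members, and mycelium for 77. The rule bounds these distances, and the same counts over all abundant sequences are not given. Scaling to equal upper quartiles moves the mycelium and primordium columns by more than 5%, so this order of stages is given for deposited values only.

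The members that departed most in 1 library illustrate the directions within the limit. Toward mycelium, Unigene8251 (2643 nt) had 116 FPKM in mycelium against 98.9, 94.9 and 94.7 FPKM in primordium, young and mature fruit body, and lay 20.2% above the geometric mean of these. The opposite case was Unigene6250, given above, whose mycelium value was 0.808 times the geometric mean of its fruiting values. In both, the fruiting libraries were close to one another as deposited. The pair was picked for the departure of mycelium, so a mycelium value apart from the rest follows from the choice. After scaling to equal upper quartiles, Unigene8251 had 104 FPKM in mycelium, below its primordium value of 107 FPKM. On that scale Unigene6250 still had its lowest value in mycelium, at 425 FPKM against 589 to 624 FPKM in the fruiting libraries.

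For primordium, Unigene3194 (1440 nt) was the highest relative to the rest, with 276 FPKM there against 225 in mycelium, 238 in the young and 222 in the mature fruit body. Unigene7418 (1495 nt) was the lowest, with 137 FPKM in primordium against 168, 169 and 155 FPKM in mycelium, young and mature fruit body. Both were picked for the departure of primordium, so mycelium values unlike those of primordium follow from the choice. After scaling to equal upper quartiles, Unigene7418 had 151 FPKM in mycelium, 147 in primordium, 176 in the young and 156 in the mature fruit body.

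For young fruit body, Unigene6570 (1271 nt) had 115 FPKM there against 93.9 in mycelium, 94.9 in primordium and 98.5 in mature fruit body. CL1886.Contig4 (497 nt) was the lowest there, at 474 FPKM against 587, 513 and 548 FPKM in mycelium, primordium and mature fruit body. For the last stage, CL191.Contig4 (7047 nt) had 87.0 FPKM in mature fruit body against 72.7, 72.5 and 74.0 FPKM in the 3 earlier libraries, which lay close together as deposited. Unigene8235 (2473 nt) had 62.5 FPKM in mature fruit body against 77.4, 76.9 and 74.5 FPKM earlier, the reverse of CL191.Contig4. After scaling to equal upper quartiles, mature fruit body remained the highest for CL191.Contig4 and the lowest for Unigene8235. Mycelium and primordium then lay further apart, at 65.4 and 78.1 FPKM for CL191.Contig4 and 69.6 and 82.8 FPKM for Unigene8235.

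On deposited values, few members moved in 1 direction along development. The value was higher at every step for 18 members and lower at every step for 13, together 13.6% of the set. The direction turned at both inner stages for 82 members, 36.0%, of which 38 went up, down and up and 44 down, up and down. A single maximum at an inner stage was found for 37 members in young fruit body and 37 in primordium, and a single minimum for 29 members in primordium and 12 in young fruit body. In this order these were 16.2%, 16.2%, 12.7% and 5.26% of the members. Over all 1342 abundant sequences the same shares were 24.4%, 17.9%, 8.64% and 9.02%, so a maximum in primordium was about as frequent in both. Among the 1114 abundant sequences outside the set, 24.5% kept 1 direction and 13.6% turned at both inner stages. The rule used these same values, so these contrasts were not tested. The direction of such small steps also depends on the scaling of the columns. The members' median ratio of young fruit body over primordium was 1.021 as deposited and 0.984 after scaling to equal upper quartiles.

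Mycelium was the library that limited the set. Of the 1342 abundant sequences, 913 were within 25% over the 3 fruiting libraries, which is 68.0%, and 228 of these 913, or 24.97%, remained when mycelium was included. In the other 685, mycelium was below all fruiting libraries for 455 and above all of them for 230. Leaving out primordium, young fruit body or mature fruit body in place of mycelium left 289, 270 and 293 of the abundant sequences within the limit. Within the set, mycelium lay below the fruiting libraries for 86 members, above them for 58 and among them for 84. The fruiting libraries of a member differed by a median ratio of 1.11, against a median of 1.18 over all abundant sequences.

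**Figure D3:**
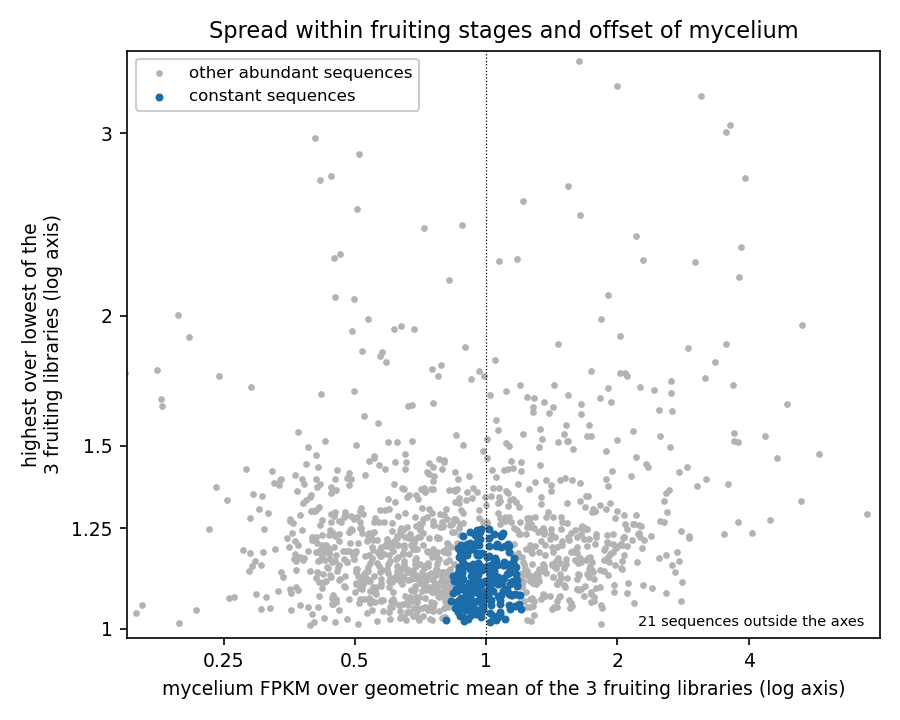
Ratio of highest to lowest FPKM among the 3 fruiting libraries (vertical log axis) against the mycelium FPKM divided by their geometric mean (horizontal log axis) for the abundant sequences; 21 sequences lie outside the axes. The 228 constant sequences (blue) fill a narrow band around a mycelium ratio of 1, and most other sequences (grey) reach a similar fruiting range at mycelium ratios further from 1.

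Step by step, the members' median ratios were near 1. The median was 1.026 for primordium over mycelium, 1.021 for young fruit body over primordium and 0.986 for mature over young fruit body. Over the 1342 abundant sequences the same medians were 1.154, 1.006 and 0.954. The rule confines a member's step, and the members spanned 0.806 to 1.239 from mycelium to primordium, 0.830 to 1.247 from primordium to young fruit body and 0.804 to 1.208 from there to the mature stage. Differences of at most 1.1-fold were found for 131 members between mycelium and primordium, 174 between primordium and young fruit body and 162 between young and mature fruit body. These were 57.5%, 76.3% and 71.1% of the members, against 13.7%, 57.0% and 48.0% of all abundant sequences. The rule itself raises the members' shares, and the order of the steps was the same in both.

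As background to these steps, 29.4% of all abundant sequences were within 25% between mycelium and primordium, 86.6% between primordium and young fruit body and 84.1% between young and mature fruit body. Mycelium and young fruit body were this close for 28.0%, mycelium and mature fruit body for 30.0%, and primordium and mature fruit body for 75.6%. Pairs with mycelium thus held the smallest shares. The comparisons share libraries and are not independent of one another.

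Length was not used by the rule. The recovered length, the smallest of at least 200 nt that made the fragments whole numbers in every library, had a median of 2227 nt over the members and 1736 nt over the abundant sequences outside the set. The share of abundant sequences that were members was 11.3% from 200 to 500 nt and 11.3% from 500 to 1000 nt, 15.8% from 1000 to 2000 nt and 15.7% from 2000 to 3000 nt, 21.7% from 3000 to 4000 nt and 29.4% from 4000 nt upward. The share was thus higher among longer sequences, although the band from 1000 to 2000 nt held more members, 72, than the 48 from 4000 nt upward. The number of fragments moved with length, with a median of 3643 in the lowest-count library of members and 3042 in that of the other abundant sequences; its part in the difference was not tested.

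The longest members were CL2692.Contig2 (9772 nt), at 71.3, 68.0, 61.0 and 59.5 FPKM across the stages in order, and Unigene7366 (9229 nt), at 104, 103, 107 and 109 FPKM. As deposited, the former was lower at each later stage, by 19.7% between the extremes, and the latter kept within 5.58%. After scaling to equal upper quartiles, the former rose from 64.1 FPKM in mycelium to 73.2 FPKM in primordium, and the latter had a ratio of 1.19. The shortest members were Unigene7394 (223 nt), at 280, 249, 275 and 265 FPKM, and Unigene8139 (417 nt), at 79.6, 72.7, 84.2 and 73.1 FPKM. Both were lowest in primordium as deposited. After scaling to equal upper quartiles both were lowest in mycelium, at 252 and 71.6 FPKM.

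The relation between membership and abundance depended on the measure of abundance. Among sequences whose lowest library was between 50 and 100 FPKM, 127 of 699 were members (18.2%). Between 100 and 200 FPKM it was 59 of 388 (15.2%), and at 200 FPKM or more 42 of 255 (16.5%). By the geometric mean over the libraries, members were 120 of 412 sequences between 50 and 100 FPKM (29.1%) and 65 of 505 between 100 and 200 FPKM (12.9%), and between 9.90% and 11.1% in the bands above. The minimum of 50 FPKM in every library bears on the lowest of these bands, since a sequence with a geometric mean close to 50 FPKM passes it only if its values lie close together.

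Single unigenes made up 185 members and contigs of clusters 43, which is 16.9% of the 1092 abundant unigenes and 17.2% of the 250 abundant contigs. An assembly cluster groups contigs of similar sequence, such as transcript variants, alleles or related genes, and the division of fragments among them was not stated in the labels. The 43 contigs came from 43 different clusters of 1 to 25 contigs, so that no cluster held more than 1 member. The member held a median of 92.7% of its cluster's summed FPKM, and at least 25.6%. CL1302.Contig2 (4743 nt), first by identifier among these, had 73.9, 71.4, 77.3 and 73.0 FPKM across the stages in order and held 84.8% of its cluster.

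The clusters held 130 other contigs, whose values the rule did not use. Of these, 101 were below 5 FPKM in every library. Among the 29 that reached 5 FPKM, 4 were within 25%, 18 were between this limit and 2-fold, and 7 differed at least 2-fold, or 24.1%. Over all clusters, a difference of at least 2-fold was found for 57.9% of the 5041 contigs that reached 5 FPKM and were not members. Contigs of 1 cluster can share fragments, so these contigs are not independent of the members beside them.

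The largest such difference was in the cluster of CL1767.Contig4 (1345 nt), a member at 114, 118, 125 and 126 FPKM across the stages in order. Beside it, CL1767.Contig2 (377 nt) had 22.4, 7.40, 2.24 and 3.04 FPKM, with mycelium 9.99-fold above young fruit body and a counting interval of 5.64 to 19.3. The cluster's summed FPKM still kept within a ratio of 1.12, because the member held 86.1% of it.

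CL1671.Contig1 (4113 nt), a member at 56.5, 59.2, 56.6 and 63.5 FPKM, stood beside CL1671.Contig3 (598 nt) at 5.38, 1.78, 0.760 and 1.17 FPKM. The latter was 7.08-fold higher in mycelium than in young fruit body, with an interval of 3.19 to 18.5 from 50 and 7 fragments. Of the 7 contigs with differences of at least 2-fold, 5 were highest in mycelium, and the like share over all clusters is not given. Among the 5, CL1671.Contig3, CL6517.Contig5 and CL92.Contig5 reached 5.38, 6.04 and 6.30 FPKM there, close to the minimum of 5 FPKM.

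Summing FPKM over a cluster kept 37 of the 43 within the ratio limit and took 6 beyond it. The largest departure, singled out after its values were seen, was CL5140. Its member CL5140.Contig2 (4625 nt) had 139 FPKM in mycelium, 128 in primordium, 139 in the young and 135 in the mature fruit body. Its companion CL5140.Contig1 (2970 nt) had 158 FPKM in mycelium and 263, 280 and 274 FPKM in the fruiting libraries, so the cluster sum differed 1.41-fold. CL3311.Contig2, among the most constant members, also had a companion that was not constant, CL3311.Contig1, at 107 FPKM in mycelium, 84.5 in primordium, 77.7 in the young and 69.2 in the mature fruit body. In both clusters the member was constant and its companion was not.

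**Figure D4:**
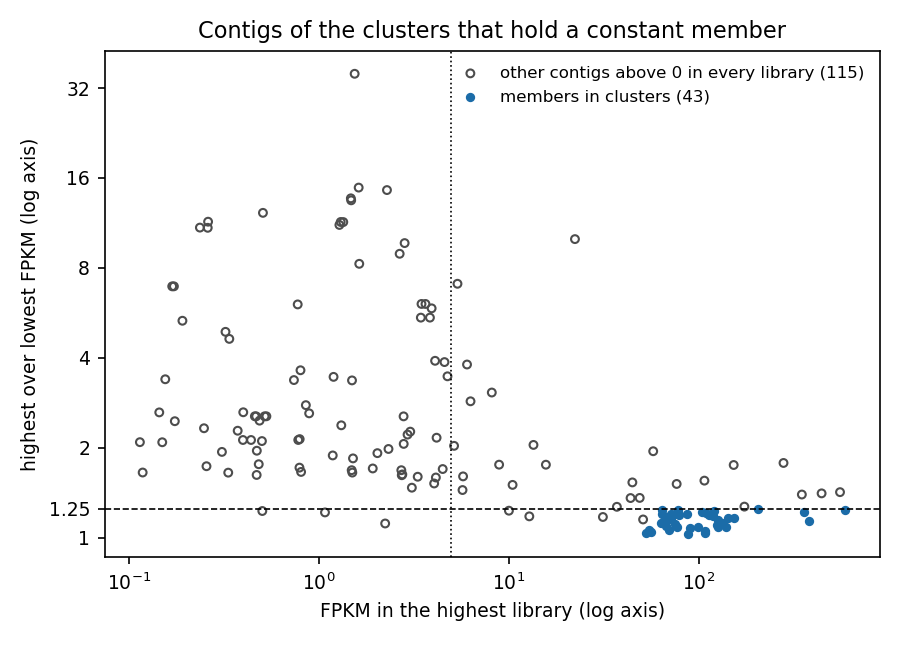
Ratio of highest to lowest FPKM (vertical log axis) against FPKM in the highest library (horizontal log axis) for the 43 members in clusters (blue) and the 115 other contigs of the same clusters that were above 0 in every library (open circles). The dashed line is the ratio limit of 25% and the dotted line 5 FPKM, to the right of which most open circles lie below a ratio of 2.

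Which sequences counted as constant depended on how the columns were scaled. Scaling to equal upper quartiles, taken over sequences with at least 1 FPKM in any library, multiplied mycelium by 0.899, primordium by 1.08, young fruit body by 1.04 and mature fruit body by 1.00. The rule then took in 166 of 1273 abundant sequences (13.0%), of which 102 were among the 228. These 102 are 44.7% of the set on deposited values and 61.4% of the set on scaled values. Of the 126 lost, 118 passed the ratio limit and 8 passed below 50 FPKM. In 81 of the lost, deposited mycelium was already below all fruiting libraries, and in 60 of the 64 that entered it was above all of them. Over the 228 members, it was below all fruiting libraries for 86. The factors lower mycelium relative to the fruiting libraries, so low mycelium values move further from these and high ones closer. These counts are therefore no trait apart from the scaling.

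The members carried farthest by this scaling were Unigene6227 (5286 nt) and Unigene3695 (6120 nt). Unigene6227 had 55.9, 69.2, 69.2 and 61.6 FPKM as deposited across the stages in order, a ratio of 1.24, and 50.3, 74.6, 71.8 and 61.8 FPKM after scaling, a ratio of 1.48. Unigene3695 went from 75.7, 93.4, 87.7 and 79.0 FPKM to a ratio of 1.48 as well. Both were lowest in mycelium on either scale.

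The most abundant sequences that entered were Unigene433 (795 nt) and Unigene6448 (210 nt). Unigene433 had 602, 460, 551 and 555 FPKM as deposited, a ratio of 1.31, and 541, 495, 572 and 557 FPKM after scaling, a ratio of 1.16. Unigene6448 had 568, 408, 446 and 519 FPKM as deposited, and its ratio of 1.39 became 1.18. Both had their highest deposited value in mycelium.

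Other scalings shared between 72 and 191 sequences with the set, and called between 11.8% and 17.8% of the sequences that were abundant on their own scale. Median-of-ratios factors, taken over sequences with at least 1 FPKM in every library, gave 241 sequences (17.8%) and kept 191, and moved mycelium upward by a factor of 1.04. Equal sums gave 182 (14.1%) and kept 134, and without the 50 most abundant sequences in the sum 208 (15.8%) and 184. The upper quartile over sequences above 0 in any library gave 148 (11.8%) and kept 72, and over those with 1 FPKM in every library 190 (14.6%) and 146. A group of 51 members, 22.4% of the set, stayed within both limits on deposited values and under all 6 scalings tried. It held 40 unigenes and 11 contigs, with a geometric mean from 54.3 to 625 FPKM. As deposited, 30 of the 51 were highest and 0 lowest in mycelium, and 0 were highest and 33 lowest in primordium. The filter that made this group bears on these counts. The upper-quartile factors lower mycelium and raise primordium, so a member high in mycelium or low in primordium passes more readily. The counts are therefore no trait apart from the filter.

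The most abundant of the 51 was Unigene1566 (1815 nt), at 653 FPKM in mycelium, 574 in primordium, 661 in the young and 615 in the mature fruit body. Its ratio was 1.151 as deposited and between 1.129 and 1.196 under the scalings. The 4 members above 1000 FPKM were not in this group; Unigene2127, for example, went from 1.11 to 1.304 at the upper quartile, and Unigene3929 from 1.199 to 1.255 with median-of-ratios factors. Of the 4 most constant, CL6031.Contig2 stayed between 1.03 and 1.23 and Unigene562 between 1.03 and 1.21, whereas CL137.Contig5 reached 1.28 and CL3311.Contig2 1.31 when the upper quartile was taken over all sequences above 0.

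**Figure D5:**
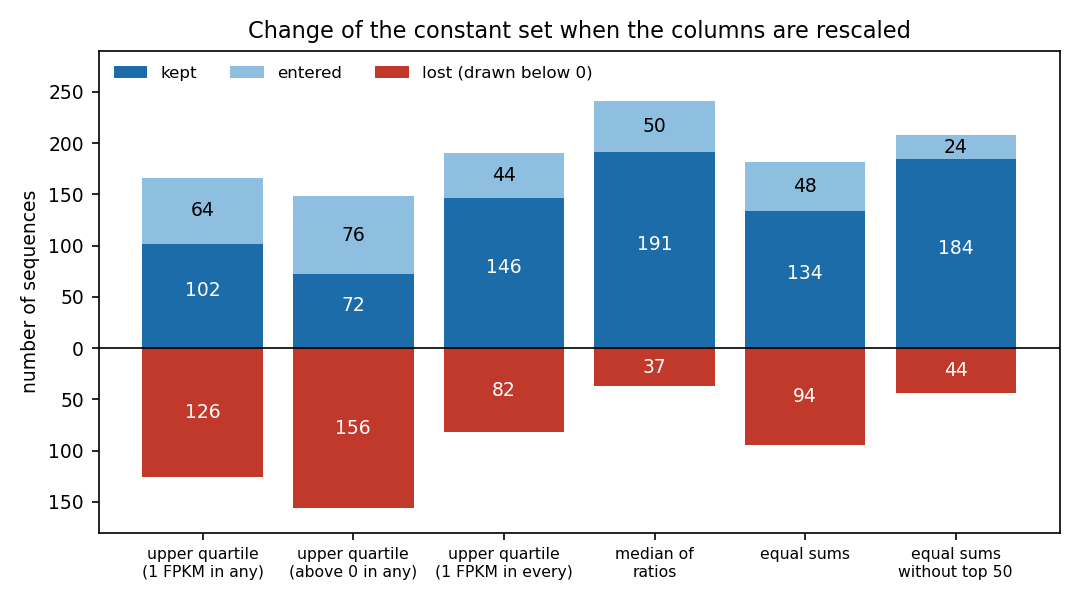
Number of sequences (vertical axis) under 6 column scalings (horizontal axis): dark bars are members kept from the 228, light bars sequences that entered, and red bars below 0 members lost. Between 72 and 191 members were kept, the fewest with the upper quartile over sequences above 0 and the most with median-of-ratios factors.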

How the data were processed

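RNA sequencing of 4 stages gave 1 library each. The deposited table holds FPKM with 4 decimals, fragments scaled by length and library total by the authors, per the file headers; RNA was taken up in Trizol, per the labels' protocols. No source used here names the assembler, aligner, counting tool or filters. Each column was assigned by the short name in a sample's description. Denominators, lengths and fragment numbers were recovered from the FPKM steps within 1.02 times the rounding error of 5e-05, for 50567 of 50567 sequences above 0; common factors of counts and length divide out, so some counts and lengths are understated and their intervals too wide. Ratios between libraries do not depend on this. Counting intervals are exact (Clopper-Pearson, 95%). Recovery and rule were tested on simulated data. No test between stages was made. Named sequences follow ranks set for level, ratio, edges of the rule, length, library, cluster and scaling; others are said to be chosen later. The rule, the members and these choices were made with earlier results of these data known. Alternatives changed scaling, minimum, ratio limit, libraries, clusters and counting error. Python 3.11.15, numpy 2.4.6, pandas 2.3.3, scipy 1.17.1 and matplotlib 3.10.9 were used.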

Additional observations from a re-analysis of the deposited data

How the results depend on the processing

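Depth left membership uncertain for 82 of the 228 members, whose counting interval passed the 25% limit. It also did so for sequences outside the set, since 320 sequences, the 228 among them, had a counting interval that reached the limit. The spread between replicate libraries was not measured. The number of constant sequences, 228, stayed within 1.5 times under 12 of 20 alternatives, which did not mean the same sequences. It was 148 with the upper quartile over sequences above 0 in any library, 378 with a minimum of 20 FPKM, 101 with 100 FPKM, 40 at a ratio of 1.1, 520 at 1.5, 1161 when the rule was applied without mycelium, 146 with the counting interval wholly within the limit, and 51 under deposited values and all 6 scalings at once, the last chosen after the data had been seen. Looser or stricter limits admit more or fewer sequences by construction; for the others the cause was not tested.

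Counts by library moved with scaling. In mycelium, 58 members were highest as reported, against 2, 0 and 12 with the upper quartile over sequences with 1 FPKM in any library, above 0 in any library and with 1 FPKM in every library, 89 with median of ratios, 9 with equal sums and 35 without the 50 highest; 86 were lowest, against 186, 200, 148, 47 and 167 in the first 5. In primordium, 60 were highest, against 129, 157 and 98 with the upper quartiles, and 57 lowest, against 7, 0 and 23, and 27 with equal sums. In young fruit body, 59 were highest, against 22 with median of ratios, and 26 lowest, against 5, 3, 7, 55, 8 and 13 in the order used for mycelium. In mature fruit body, 51 were highest, against 29 with the upper quartile above 0, and 59 lowest, against 30 and 25 with the first 2 upper quartiles and 26 with equal sums. The median ratio of primordium over mycelium, 1.026, was 1.229, 1.296 and 1.142 with the upper quartiles, 1.151 with equal sums and 1.083 without the 50 highest; that of young fruit body over primordium, 1.021, was 0.955 with the upper quartile above 0. Without the 50 highest sequences in the sum, members held between 7.34% and 7.82% of summed FPKM. Of 222 recalculated ratios of named sequences, 127 left their counting interval. No paired analysis was possible because there was 1 library a stage.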

Other observations

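Below the minimum of 50 FPKM, sequences within 25% were a smaller share. By the FPKM of the lowest library, they were 453 of 7418 sequences between 1 and 5 FPKM (6.11%), 170 of 1547 between 5 and 10 FPKM (11.0%), 110 of 999 between 10 and 20 FPKM (11.0%) and 150 of 1152 between 20 and 50 FPKM (13.0%). The median number of fragments in the library with fewest was 43, 182, 360 and 952 in these bands, so counting error also widened toward the low end, and its part in the shares was not tested. Over all 40638 sequences above 0 in every library, 1604 were within it, or 3.95%.

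Among clusters that held a member, CL1886, singled out after its values were seen, held 3 companions at 50 FPKM or more in every library beside its member, and 5 other clusters held 1 such companion each. Its member CL1886.Contig4 (497 nt) held 32.05% of the cluster's summed FPKM. CL1886.Contig1 (430 nt) had 445 FPKM in mycelium, 343 in primordium, 316 in the young and 396 in the mature fruit body, lowest in young fruit body as the member was. CL1886.Contig2 (3200 nt) was highest in primordium, at 350.1 FPKM against 253, 290 and 251 FPKM in mycelium, young and mature fruit body. CL1886.Contig3 (1593 nt) had 556 FPKM in mycelium, 489 in primordium, 419 in the young and 391.6 in the mature fruit body. The sum over the 4 contigs was within the limit, at a ratio of 1.23, although each of the 3 companions differed by 1.39-fold to 1.42-fold.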
